A study of Mus musculus with 40 samples.

Results

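Nuclear pore proteins were followed on arrays of mouse embryos at the 1-cell and 2-cell stages. The members are the genes with a probe set annotated to that gene alone whose symbol is a Nup symbol (Nup or Nupl with a number) or is Tpr, Rae1, Seh1l, Sec13, Pom121, Ndc1 or Ahctf1. They were 27 of 18193 genes with such a probe set. Tpr had none and is not among them. The choice of genes by symbol uses no measured value, although it was written with earlier results of these data known. The choice of a gene's probe set does use its level. Each gene was represented by its probe set with the highest mean over all arrays. All 27 passed the filter on dim probe sets, which left 14880 genes for the tests.

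The nuclear pore complex is the channel through which proteins and RNA cross the nuclear envelope. It is built from many copies of a set of nucleoporins. A scaffold of outer rings (the Y complex) and an inner ring is anchored by membrane proteins, and it holds flexible proteins rich in phenylalanine-glycine repeats that form the transport barrier. Filaments reach into the cytoplasm and a basket reaches into the nucleus. Pores are taken apart at mitosis and rebuilt around the new nuclei. The early mouse embryo starts with RNA and protein stored in the oocyte, and strong transcription of its own genome begins at the 2-cell stage.

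All embryos carried the B6D2 background, and poly(A) RNA was hybridized to 40 Affymetrix arrays in 10 groups, of which 39 have values. Fertilized embryos, embryos made by somatic cell nuclear transfer (SCNT) and parthenogenetic embryos (parthenogenic in the labels) were measured untreated at 1 cell and 2 cells. The first pair of origins was also measured after culture with α-amanitin, which blocks RNA polymerase II. SCNT places a donor nucleus in an enucleated egg, and the labels name a cumulus cell of a B6D2 female as the donor for 14 of 16 SCNT samples. Each group had 4 arrays, except untreated 1-cell SCNT embryos with 3, because 1 column of values is empty. The labels give MEMα medium for 13 of 16 SCNT samples and a medium for 1 other sample, so medium and origin cannot be told apart. They spell out amanitin for 7 of the 8 SCNT samples marked with the letter A. For the 8 fertilized samples so marked, the treatment rests on the same letter and on the series' design text. Whether replicates were separate cultures or animals, and how many embryos each pooled, is not stated in the labels, so p-values measure only the spread between these samples.

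Values are log2 of the deposited intensity plus a constant of 6.9, quantile normalized, and a difference is the first group minus the second with its standard error (SE). A gene is called, and said to have risen or fallen, at an adjusted p under 0.05 (limma, Benjamini-Hochberg over the 14880 genes of a comparison). Probe sets differ in how well they bind, so no level is compared between genes. In whole-embryo RNA a lower value relative to other RNA and less RNA per cell cannot be told apart. Correlations of an array with the mean of its group's other arrays ran from 0.9605 to 0.986. The 10 oocyte markers had a mean level of 11.31 to 11.54 in fertilized 1-cell and 8.87 to 9.12 in fertilized 2-cell embryos, and of 10.55 to 10.75 with amanitin at 2 cells. In SCNT embryos they stood at 11.13 to 11.19, 8.85 to 9.07 and 10.46 to 10.69, and in parthenogenetic ones at 10.98 to 11.04 and 9.87 to 10.06. Their part in the differences of the pore genes was not tested. The 6 genes that mark the 2-cell stage stood at 10.92 to 11.04 on untreated fertilized 2-cell arrays, 10.75 to 10.80 on SCNT and 10.56 to 10.76 on parthenogenetic ones. With amanitin they stood at 5.01 to 5.42 in fertilized and 4.57 to 5.22 in SCNT 2-cell embryos. The 13 measured cumulus cell markers had means of 5.40 to 6.28 over the arrays of all groups, near the overall median of 5.34. The 6 sperm and 3 measured blood markers had means of 3.87 to 5.27.

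RefSeq (GRCm38.p6) gave 26 promoters of 23 of the 27 genes, read here as the 250 bases before the start. The promoters of Nup107, Nup133, Nup37 and Sec13 are shown because of their place in the results: Nup133 and Nup107 had the largest decreases with amanitin at the 2-cell stage, Nup37 the largest decline between the fertilized stages, and Sec13 the largest increase with amanitin in fertilized embryos. Capitals mark matches to the motifs counted below, on either strand, and each sequence is written 5′ to 3′ on the gene's strand. Nup107 lies at chr10:117792706-117792955 (minus strand), Nup133 at chr8:123949266-123949515 (minus strand), Nup37 at chr10:88146742-88146991 (plus strand, the first of its 2 listed starts) and Sec13 at chr6:113740682-113740931 (minus strand).
Nup107: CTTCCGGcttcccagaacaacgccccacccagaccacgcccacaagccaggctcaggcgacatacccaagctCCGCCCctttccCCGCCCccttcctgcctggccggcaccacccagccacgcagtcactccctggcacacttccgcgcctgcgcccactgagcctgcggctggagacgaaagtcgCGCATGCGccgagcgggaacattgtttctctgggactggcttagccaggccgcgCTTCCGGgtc
Nup133: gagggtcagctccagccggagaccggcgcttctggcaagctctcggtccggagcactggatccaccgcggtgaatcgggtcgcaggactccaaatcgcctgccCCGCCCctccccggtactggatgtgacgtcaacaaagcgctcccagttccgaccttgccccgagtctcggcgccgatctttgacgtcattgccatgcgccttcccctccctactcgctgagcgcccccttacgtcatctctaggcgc
Nup37: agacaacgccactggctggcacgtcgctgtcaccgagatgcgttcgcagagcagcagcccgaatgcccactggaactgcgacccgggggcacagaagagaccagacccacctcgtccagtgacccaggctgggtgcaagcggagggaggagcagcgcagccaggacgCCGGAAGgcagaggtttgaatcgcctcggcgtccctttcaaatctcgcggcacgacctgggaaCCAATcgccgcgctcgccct
Sec13: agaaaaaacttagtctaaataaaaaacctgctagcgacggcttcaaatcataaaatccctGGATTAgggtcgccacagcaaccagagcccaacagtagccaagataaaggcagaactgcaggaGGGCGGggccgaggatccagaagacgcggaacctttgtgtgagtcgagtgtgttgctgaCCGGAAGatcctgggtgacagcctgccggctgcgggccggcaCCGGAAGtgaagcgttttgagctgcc

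The promoters of the pore genes were rich in G and C, with a median of 64% against 52.4% over all 32851 promoters of the same length. The GC box GGGCGG was present in 61.5% of them and in 32.7% of all promoters. The ETS motif CCGGAAG was found in 23.1% against 6.91%, among them those of Nup107, Nup37 and Sec13 above. The NRF1 core CGCATGCG was found in 11.5% against 1.55%, in Nup107, Nup50 and Nup62. AAGATGGCG, a YY1 motif, stood in 7.69% against 0.606%, and CCAAT in 42.3% against 33.8%. TATAAA was found in 7.69% against 12.4%, and GGATTA, a motif of some homeobox factors, in 3.85% against 6.25%. The shares of 7.69% stand for 2 of the 26 promoters and that of 3.85% for 1. Matches to different motifs overlapped 0 times in the pore promoters. These shares describe letters in a window and show no binding.

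Between the fertilized 1-cell and 2-cell stages most pore transcripts fell. 7 of the 27 genes were higher and 17 lower, against 25.8% and 34.3% of all genes tested. The median difference of the 27 was -0.51, and over all genes -0.13. The decline covered both members of the nuclear basket, Nup153 and Nup50. It also covered all 5 members grouped as cytoplasmic side and mobile (Nup214, Nup88, Nupl2, Nup98 and Rae1). For Nup214 and Nupl2, however, another probe set was called in the opposite direction. Ranbp2, also named Nup358 and a protein of the cytoplasmic filaments, is outside the rule and rose by 1.98 (SE 0.16). The outer ring split, with 4 genes higher and 5 lower. The share of members that fell was above that of all genes, and the share that rose was close to it.

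**Figure D1:**
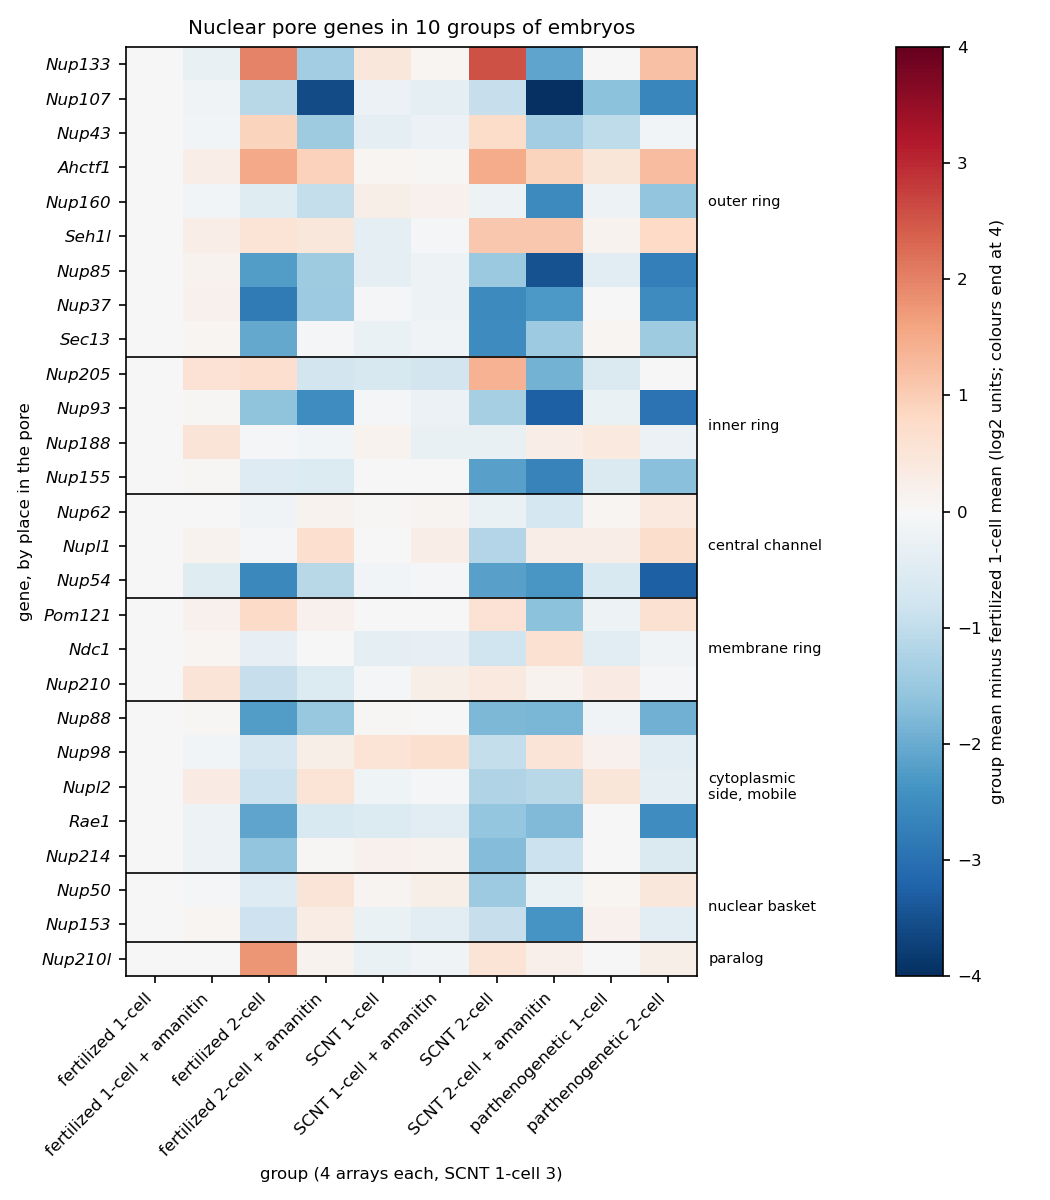
Each row is 1 of the 27 pore genes, ordered by its place in the pore, and each column is 1 of the 10 groups. Colour is the group mean minus the fertilized 1-cell mean in log2 units, and the colour scale ends at 4 in either direction. Nup37, Nup54, Nup85 and Nup88 are lower in every 2-cell group, and Nup107 is lowest in 2-cell SCNT embryos with amanitin, where its arrays stand at 3.81 to 5.31.

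In the outer ring, Nup37 had the largest decline. It measured 12.23, 11.97, 11.81 and 11.73 in fertilized 1-cell and 9.08, 9.24, 8.72 and 9.35 in fertilized 2-cell embryos, a difference of -2.84 (SE 0.12, adjusted p = 8.01e-23). Nup85, a scaffold protein of the same complex, measured 11.02, 10.82, 11.03 and 10.78 and then 8.68, 8.76, 8.58 and 8.72, a difference of -2.23 (SE 0.12, adjusted p = 2.13e-19). Neither gene had overlapping arrays. Sec13, which also belongs to the coat of vesicles leaving the endoplasmic reticulum, fell by 2.06 (SE 0.16). Nup107, part of the stem of the Y, fell by 1.09 (SE 0.20) and Nup160 by 0.49 (SE 0.14).

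Other outer-ring genes rose. Nup133, the partner of Nup107 in the stem, measured 7.37, 7.78, 7.40 and 7.56 in 1-cell and 9.33, 9.69, 9.57 and 9.53 in 2-cell embryos, a difference of 1.998 (SE 0.20, adjusted p = 3.23e-11). Ahctf1 encodes ELYS, which binds chromatin and starts pore assembly after mitosis. Its arrays read 10.25, 9.73, 9.45 and 9.56 and 11.31, 11.32, 11.25 and 11.23, a difference of 1.53 (SE 0.11, adjusted p = 7.7e-16). Nup43 measured 8.55, 8.92, 8.86 and 9.09 and 9.84, 9.82, 9.70 and 9.64, a difference of 0.90 (SE 0.16, adjusted p = 5.67e-06). In these 3 genes every 2-cell array lay above every 1-cell array. Seh1l rose by 0.53 (SE 0.094), from a mean of 10.28 ± 0.22 (SD, n = 4) to 10.81 ± 0.081 (SD, n = 4).

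In the inner ring, Nup93, which ties the channel proteins to the scaffold, fell by 1.62 (SE 0.14) and Nup155 by 0.51 (SE 0.21). Nup205 rose by 0.68 (SE 0.29), and Nup188 differed by -0.037 (SE 0.21, adjusted p = 0.9) from a 1-cell mean of 7.69 ± 0.68 (SD, n = 4). Of the channel genes, Nup54 measured 10.13, 11.62, 11.75 and 11.64 in 1-cell and 8.52, 8.54, 8.77 and 9.06 in 2-cell embryos, a difference of -2.57 (SE 0.23, adjusted p = 7.18e-13). Its replicate 1 at the 1-cell stage was the lowest of that group but still above every 2-cell array. Nup62 (-0.15, SE 0.076) and Nupl1, also named Nup58 (-0.074, SE 0.10), were not called. Nup62 stood at 12.78 ± 0.16 in 1-cell and Nupl1 at 11.11 ± 0.10 (SD, n = 4 each).

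On the cytoplasmic side, Nup88, the partner of Nup214, measured 11.93, 11.29, 11.39 and 11.11 in 1-cell and 9.27, 9.12, 9.22 and 9.23 in 2-cell embryos, a difference of -2.22 (SE 0.11, adjusted p = 3.54e-21) with no overlap. Rae1, an mRNA export factor that binds Nup98, fell by 2.11 (SE 0.16), and Nup214 by 1.58 (SE 0.12). Nupl2, also named Nup42 and involved in mRNA export, stood at 6.79 ± 0.33 (SD, n = 4) in 1-cell embryos. It fell by 0.87 (SE 0.23) and Nup98 by 0.69 (SE 0.10). In the basket, Nup153 fell by 0.82 (SE 0.11) and Nup50, which binds importin α, by 0.51 (SE 0.076).

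Of the membrane genes, Pom121 rose by 0.77 (SE 0.13) from 10.60 ± 0.12 (SD, n = 4), while Ndc1 fell by 0.33 (SE 0.15) and Nup210 by 0.91 (SE 0.40). Nup210l is a paralog of Nup210, and its arrays read 3.78, 4.41, 3.93 and 3.80 in 1-cell and 4.37, 6.59, 6.39 and 5.64 in 2-cell embryos. The difference was 1.77 (SE 0.37, adjusted p = 7.09e-05), and the groups overlapped. Only 3 arrays of untreated fertilized and 1 of untreated SCNT 2-cell embryos lay above the median, just the 4 that the filter asks for. Nup210l was thus tested only through groups where it is high, so its calls against fertilized 2-cell embryos, here and below, give no independent support. Most of these values lie near or under the overall median of 5.34, and the difference was 2.16 with a constant at the 5th percentile and 1.20 at the 40th. Nup210 was likewise dim, at 5.28 ± 0.12 in 1-cell and 4.37 ± 1.31 in 2-cell embryos (SD, n = 4 each).

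5 of these calls were lost when a single array was left out. Ndc1 lost its call when any of 17 arrays was left out, at -0.36 to -0.27, and Nup210 with any of 6, at -0.94 to -0.52. Without fertilized 2-cell replicate 3 or 4 Nup210 stood at -0.55 or -0.52. Nup205 lost its call with any of 5 arrays, at 0.51 to 0.69, and Nup155 with any of 4, at -0.49 to -0.43. Nup160 stood at -0.28 (adjusted p = 0.0508) without fertilized 1-cell replicate 1. That array stood apart from its group in Nup107, Nup54, Rae1 and Nup214, and 20 genes were called without it. Other settings also ended these calls. Under the authors' scaling Ndc1 stood at -0.28 (adjusted p = 0.103) and Nup210 at -0.79 (adjusted p = 0.0925), and under median centring Nup205 stood at 0.51 (adjusted p = 0.108). Nup160 stood at -0.087 (adjusted p = 0.763) with the mean of its probe sets. That mean turned Nup155 to 0.69 (adjusted p = 0.00784) and Nupl2 to 0.17 (adjusted p = 0.52).

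**Figure D2:**
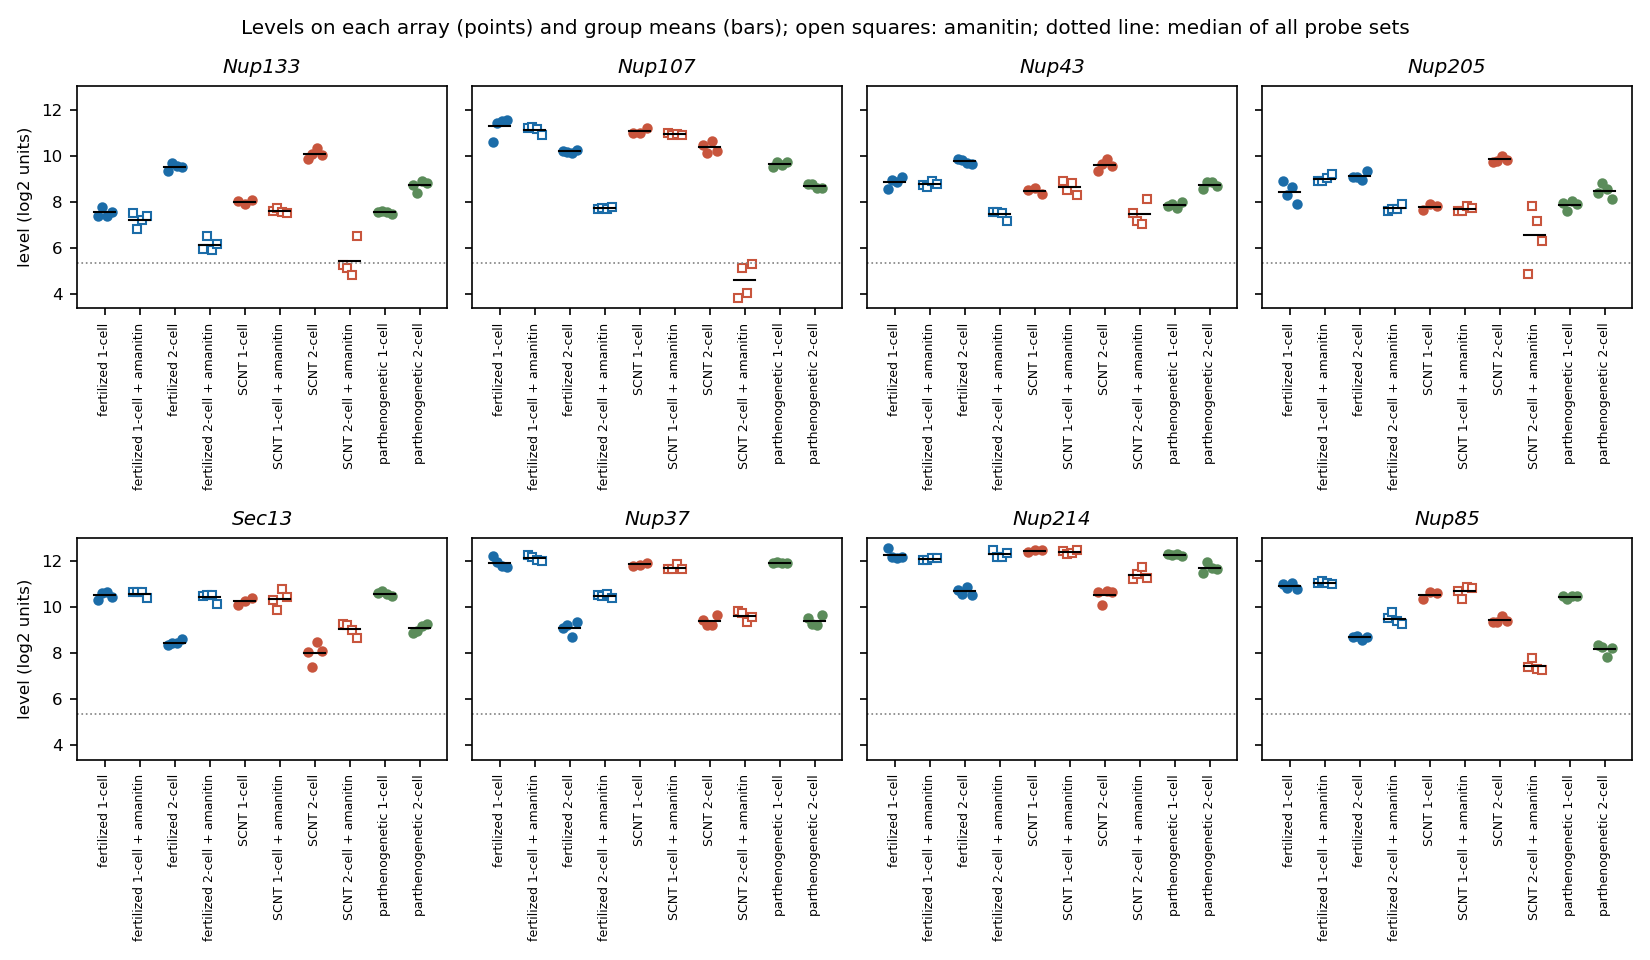
Log2 level (y axis) of the pore genes named in the panels on every array (points), by group (x axis), with the group mean as a bar and amanitin as open squares. The dotted line is the median of all probe sets, 5.34. Nup37 and Sec13 lie lower on every untreated 2-cell array than on any 1-cell array of the same origin, and Nup133 lies higher.

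The same change of stage was measured in the other origins, which share no array with the fertilized embryos. In SCNT embryos 6 of the 27 genes were higher and 18 lower, against 26.2% and 34.5% of all genes tested, with medians of -0.69 over the members and -0.14 over all genes. Of the genes called in both, 6 rose and 16 fell in fertilized and SCNT embryos alike, and 0 went opposite ways. Such joint counts, here and below, were not made over all genes, so they are not read as a trait of the pore genes. In parthenogenetic embryos 8 of the 27 genes were higher and 15 lower, against 21.7% and 27.5% of all genes tested, with medians of -0.63 and -0.041. There 5 genes rose and 14 fell as in fertilized embryos, and Nup50 alone of the genes called in both went the other way. These joint counts too have no counterpart over all genes. All 5 members grouped as cytoplasmic side and mobile fell in each origin. Between the fertilized stages, another probe set of Nup214 and of Nupl2 rose. By the mean of probe sets, Nupl2 (-0.25) and Rae1 (-0.33) were not called between the SCNT stages, nor Nup214 (-0.18) between the parthenogenetic ones, at adjusted p of 0.363, 0.13 and 0.347. For SCNT and then parthenogenetic embryos, Nup37 changed by -2.48 (SE 0.13) and -2.51 (SE 0.12), Nup133 by 2.08 (SE 0.22) and 1.16 (SE 0.20), and Ahctf1 by 1.39 (SE 0.12) and 0.77 (SE 0.11).

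The poly(A) control transcripts, 24 probe sets, averaged 3.56 to 3.66 on 1-cell and 8.12 to 9.15 on 2-cell SCNT arrays, 5.93 to 6.85 and 6.91 to 8.40 on fertilized ones, and 7.74 to 8.01 and 7.56 to 7.60 on parthenogenetic ones. Their part in the stage differences was not tested. The parthenogenetic counts moved with the scaling. Under the authors' scaling alone the counts were 9 and 15, with a median over all genes of 0.205, and under median centring 2 and 16, with a median of -0.26. Nup50 (0.38, SE 0.076), Nup62 (0.32, SE 0.076) and Nupl1 (0.44, SE 0.10) were higher at the 2-cell stage as normalized here and under the authors' scaling, but stood at -0.25, -0.042 and -0.14 under median centring. There Ahctf1 (0.14), Pom121 (0.18) and Seh1l (0.006), which are 3 of the 5 genes that rose in both fertilized and parthenogenetic embryos, were not called either, at adjusted p of 0.438, 0.332 and 0.973. Pom121 also lost its call between the SCNT stages, at 0.036 (adjusted p = 0.862). In SCNT embryos Nup50, Nup62 and Nupl1 fell, by 1.57, 0.31 and 1.19 (SE 0.082, 0.083 and 0.11).

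A direct test of the SCNT minus fertilized difference in the change between stages called 4 members higher and 4 lower, against 8.64% and 10.4% of all genes. With the authors' scaling alone 4 were higher and 5 lower (median of all genes 0.053), and with median centring 4 and 5 (median -0.13). Nup155 had the largest difference, at -1.62 (SE 0.30, adjusted p = 0.000104). Its fertilized values are 8.50, 8.06, 8.37 and 8.29 at 1 cell and 7.61, 7.93, 8.07 and 7.55 at 2 cells. Its SCNT values are 8.42, 8.24 and 8.17 and 5.47, 6.70, 6.50 and 5.91. In both origins the 2-cell mean was the lower, and the 2-cell SCNT arrays lay below all others of these 4 groups. Nup205, a large scaffold protein, differed by 1.38 (SE 0.43, adjusted p = 0.0197). It measured 8.89, 8.29, 8.63 and 7.91 and then 9.07, 9.09, 8.96 and 9.33 in fertilized embryos. In SCNT embryos it measured 7.65, 7.89 and 7.79 and then 9.74, 9.79, 9.98 and 9.83, so it rose in both and more in SCNT. With the mean of each gene's probe sets, Nup155 stood at -0.44 (adjusted p = 0.427) and Nup205 at 0.96 (adjusted p = 0.181).

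Nupl1 differed by -1.12 (SE 0.15, adjusted p = 4.26e-07). Its fertilized arrays read 11.03, 11.11, 11.04 and 11.26 at 1 cell and 11.07, 10.81, 11.25 and 11.003 at 2 cells, which overlap. Its SCNT arrays read 11.17, 11.12 and 11.11 and 10.11, 9.82, 10.21 and 9.64, which do not. The other called genes were Nup85 (1.12, SE 0.18), Rae1 (1.11, SE 0.23) and Seh1l (0.91, SE 0.14) on the higher side, and Nup50 (-1.06, SE 0.11) and Nup98 (-0.82, SE 0.15) on the lower. By the mean of probe sets, Nupl1 (-0.16), Rae1 (0.55) and Seh1l (0.21) were not called, at adjusted p of 0.517, 0.152 and 0.418. Another probe set of Nupl1 was called in the opposite direction.

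The parthenogenetic minus fertilized difference in the change between stages was called for 6 members on the higher and 5 on the lower side, against 19.8% and 15.7% of all genes. These counts became 5 and 5 under the authors' scaling alone, where the median of all genes was 0.275, and 3 and 8 under median centring, where it was -0.036. Nup210l differed by -1.52 (SE 0.52, adjusted p = 0.0204), with parthenogenetic arrays at 3.86, 4.12, 4.15 and 3.73 and then 3.80, 5.04, 3.81 and 4.19, which overlap. Without fertilized 2-cell replicate 2 or 3 it stood at -1.24 or -1.31 and was not called. Nup93 differed by -1.08 (SE 0.20, adjusted p = 2.39e-05). Its fertilized arrays read 10.98, 11.12, 11.17 and 10.95 and then 9.28, 9.51, 9.40 and 9.57, and its parthenogenetic arrays 10.74, 10.74, 10.75 and 10.97 and then 8.16, 7.93, 8.03 and 8.29. It fell in both, and further in parthenogenetic embryos. Nup214, a cytoplasmic filament protein, differed by 1.01 (SE 0.16, adjusted p = 3.55e-06).

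The fertilized arrays of Nup214 read 12.59, 12.19, 12.14 and 12.19 and then 10.76, 10.59, 10.88 and 10.55, and the parthenogenetic ones 12.31, 12.28, 12.31 and 12.24 and then 11.49, 11.99, 11.71 and 11.65. It fell in both and less in parthenogenetic embryos. The remaining calls were Nup50 (0.89, SE 0.11), Ndc1 (0.59, SE 0.21), Nupl1 (0.51, SE 0.14), Nup62 (0.47, SE 0.11) and Nup88 (0.46, SE 0.15) on the higher side and Nup160 (-0.88, SE 0.20), Nup133 (-0.84, SE 0.29) and Ahctf1 (-0.76, SE 0.15) on the lower. Nup88 lost its call without fertilized 1-cell replicate 1 (0.29) and stood at -0.031 under median centring. Ndc1 was not called without fertilized 1-cell replicate 4 (0.53), nor Nup133 without parthenogenetic 2-cell replicate 2 (-0.73). With the mean of probe sets, Nup214 (0.18), Nup160 (-0.42), Nup133 (-0.19), Ahctf1 (-0.041), Nupl1 (0.23) and Ndc1 (0.39) were not called, at adjusted p of 0.575, 0.355, 0.539, 0.879, 0.229 and 0.125. Nupl1 stood at 0.080 (adjusted p = 0.765) and Ndc1 at 0.46 (adjusted p = 0.117) under median centring.

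With α-amanitin, more pore genes of fertilized 2-cell embryos were higher than lower, compared with untreated ones. 14 of the 27 genes were higher and 9 lower, against 38.6% and 25.7% of all genes tested. The median difference was 0.35, beside 0.28 over all genes. All 5 members grouped as cytoplasmic side and mobile, all 3 of the channel and both of the basket were higher. For Nup214, Nupl2 and Nup50 another probe set was called lower. Ranbp2, outside the rule, differed by -2.11 (SE 0.16). Of the outer ring 3 were higher and 5 lower. This comparison shares the untreated 2-cell arrays with the change between stages. These arrays enter the comparisons with opposite sign, which favours opposite directions in any gene. Side by side, 12 genes that fell between the stages were higher with amanitin, 6 that rose were lower with it, and 3 (Nup107, Nup160 and Nup93) were lower in both. The same patterns were not counted over all genes.

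Sec13 measured 8.34, 8.43, 8.42 and 8.61 untreated and 10.51, 10.52, 10.53 and 10.16 with amanitin, a difference of 1.98 (SE 0.16, adjusted p = 4.42e-14). Nup214 measured 12.48, 12.20, 12.20 and 12.36 with amanitin against the untreated values above, a difference of 1.61 (SE 0.12, adjusted p = 1.19e-15). Rae1 measured 8.75, 8.61, 8.65 and 8.75 untreated and 10.08, 10.22, 10.32 and 10.16 with amanitin, a difference of 1.51 (SE 0.16, adjusted p = 5.82e-11). None of these groups overlapped. Nup54 read 10.07, 10.34, 10.10 and 10.15 with amanitin, a difference of 1.45 (SE 0.23, adjusted p = 5.62e-07), and all 4 arrays lay above the untreated ones. The other genes that were higher are Nupl2 (1.42, SE 0.23), Nup37 (1.40, SE 0.12), Nup153 (1.11, SE 0.11), Nup50 (1.03, SE 0.076), Nup98 (0.92, SE 0.10), Nup85 (0.81, SE 0.12), Nupl1 (0.75, SE 0.10), Nup88 (0.71, SE 0.11), Ndc1 (0.35, SE 0.15) and Nup62 (0.30, SE 0.076). With the mean of probe sets, Nup214 turned to -0.18 and Ndc1 to -0.024, and Nupl2 stood at 0.26, all not called.

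The lower genes were led by Nup133 and Nup107, which belong to the stem of the Y complex. Nup133 read 5.92, 6.51, 5.89 and 6.17 with amanitin, against 9.33, 9.69, 9.57 and 9.53 without, a difference of -3.40 (SE 0.20, adjusted p = 6.19e-18). Nup107 read 10.21, 10.18, 10.11 and 10.25 untreated and 7.68, 7.73, 7.67 and 7.76 with amanitin, a difference of -2.48 (SE 0.20, adjusted p = 3.6e-14). Nup43 read 7.53, 7.55, 7.52 and 7.17 with amanitin, a difference of -2.31 (SE 0.16, adjusted p = 4.89e-16). In none of the 3 did the groups overlap. Nup210l read 4.26, 4.31, 3.81 and 4.12 with amanitin, a difference of -1.62 (SE 0.37, adjusted p = 0.000207), also without overlap. It passed the filter only through untreated 2-cell arrays, so this call is no independent support. The other lower genes were Nup205 (-1.40, SE 0.29), Nup93 (-0.86, SE 0.14), Ahctf1 (-0.59, SE 0.11), Pom121 (-0.58, SE 0.13) and Nup160 (-0.47, SE 0.14). Nup155, Nup188, Nup210 and Seh1l were not called, with differences of -0.027, -0.062, 0.38 and -0.089. Ndc1 lost its call without any of 6 arrays, at 0.29 to 0.36, and stood at 0.21 (adjusted p = 0.237) under the authors' scaling. Pom121 stood at -0.18 (adjusted p = 0.283) with the mean of its probe sets.

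In SCNT 2-cell embryos with amanitin more pore genes were lower than higher. There 7 of the 27 genes were higher and 12 lower, against 39.7% and 29.6% of all genes tested, with medians of -0.27 over the members and 0.28 over all genes. Of genes called in fertilized and SCNT embryos, 6 were higher in both, 8 lower in both, and Nup153, Nup62 and Nup85 were higher in fertilized and lower in SCNT embryos. The same counts over all genes were not made. Of the 5 members grouped as cytoplasmic side and mobile, Nup214 and Nup98 were called higher and the other 3 were not called. Ranbp2, outside the rule, differed by -2.09 (SE 0.16). Beside these values, the poly(A) controls averaged 10.04 to 10.58 with amanitin and 8.12 to 9.15 without. The 18 hybridization control probe sets averaged 10.68 to 11.11 and 9.40 to 9.76. Their part in the result was not tested.

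Nup107 showed the largest difference of any member. It measured 10.47, 10.11, 10.65 and 10.22 untreated and 3.81, 5.13, 4.04 and 5.31 with amanitin, a difference of -5.79 (SE 0.20, adjusted p = 1.1e-25). All treated arrays lie under the overall median, and the difference was -6.19 with a constant at the 5th percentile and -5.06 at the 40th. Nup133 measured 9.87, 10.07, 10.32 and 10.05 untreated and 5.22, 5.13, 4.82 and 6.50 with amanitin, a difference of -4.66 (SE 0.20, adjusted p = 2.63e-22). Nup205 measured 4.86, 7.83, 7.17 and 6.30 with amanitin, a difference of -3.30 (SE 0.29, adjusted p = 5.43e-13) from the untreated arrays given above. Nup160 read 9.997, 10.11, 10.11 and 9.92 untreated and 7.53, 8.17, 7.32 and 7.79 with amanitin, a difference of -2.33 (SE 0.14, adjusted p = 6.42e-18). None of these 4 genes had overlapping groups. The other lower genes were Pom121 (-2.21, SE 0.13), Nup43 (-2.14, SE 0.16), Nup85 (-1.996, SE 0.12), Nup93 (-1.93, SE 0.14), Nup153 (-1.42, SE 0.11), Ahctf1 (-0.58, SE 0.11), Nup155 (-0.51, SE 0.21) and Nup62 (-0.44, SE 0.076).

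Nup98, which moves on and off the pore, measured 9.45, 9.44, 9.98 and 9.50 untreated and 10.93, 11.04, 11.32 and 10.95 with amanitin, a difference of 1.47 (SE 0.10, adjusted p = 3.46e-16). Nupl1 measured 11.33, 11.31, 11.61 and 11.28 with amanitin, a difference of 1.44 (SE 0.10, adjusted p = 4.5e-16). Ndc1 read 6.57, 6.23, 6.60 and 6.49 untreated and 7.78, 7.94, 7.82 and 8.04 with amanitin, a difference of 1.42 (SE 0.15, adjusted p = 3.04e-11). Nup50 read 9.30, 9.24, 9.46 and 9.17 and 10.43, 10.46, 10.64 and 10.42, a difference of 1.19 (SE 0.076, adjusted p = 2.35e-17). In each of these 4 the treated arrays lay above the untreated ones. Sec13, Nup214 and Nup188 were also higher, by 1.04 (SE 0.16), 0.88 (SE 0.12) and 0.57 (SE 0.21). Nup188 lost its call without SCNT 2-cell replicate 2 (0.42) or amanitin replicate 1 (0.51). Nup155 lost it without untreated replicate 2 (-0.33) or 3 (-0.39), or amanitin replicate 4 (-0.32). Nup62 stood at 0.19 under the authors' scaling and 0.13 under median centring, both not called. Nup188 stood at 0.28 (adjusted p = 0.25) and 0.22 (adjusted p = 0.388) under these. With the mean of probe sets, Nup153 stood at 0.002 and was not called, and Nup214 turned to -0.92 and was called lower.

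**Figure D3:**
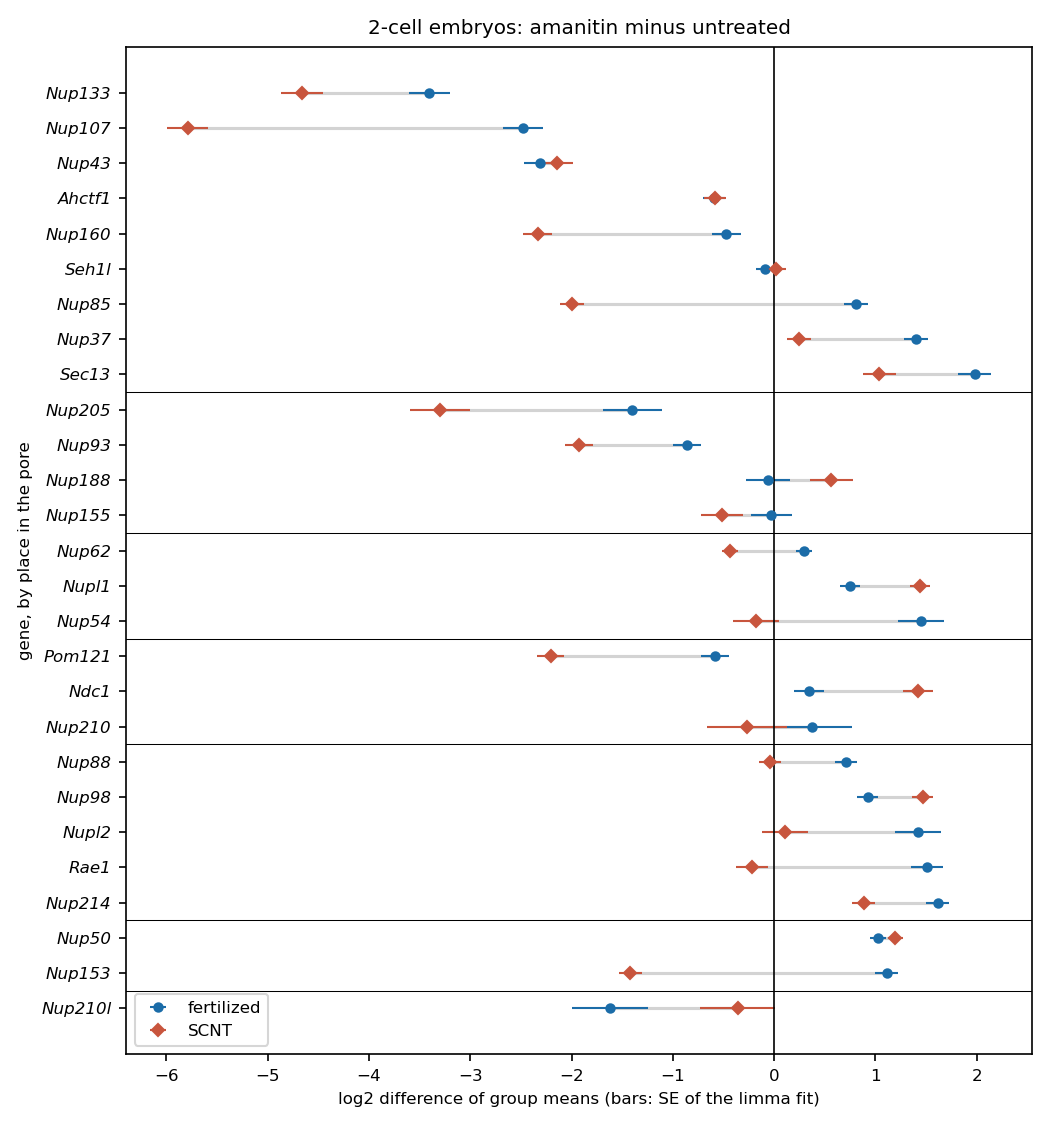
Log2 difference of group means between amanitin and untreated 2-cell embryos (x axis) for each of the 27 pore genes (y axis, by place in the pore) in fertilized (circles) and SCNT embryos (diamonds), with bars of 1 SE of the limma fit. The 2 points lie farthest apart for Nup107, Nup85 and Nup153, with the SCNT value the lower in each.

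Whether amanitin had a different effect in SCNT than in fertilized embryos was tested directly (SCNT minus fertilized). It was called for 3 members on the higher and 16 on the lower side, against 17.8% and 21.1% of all genes, with medians of -0.75 and -0.001. Nup107 had the largest, at -3.31 (SE 0.28, adjusted p = 1.83e-12), from -2.48 in fertilized and -5.79 in SCNT embryos. With a constant at the 40th percentile Nup107 stood at -2.66 and Nup85 at -2.69, so the first rank depends on the constant. The poly(A) controls stood at 6.91 to 8.40 untreated and 7.22 to 7.63 with amanitin on fertilized 2-cell arrays, beside the SCNT values above. For Nup85 the difference was -2.80 (SE 0.17, adjusted p = 1.91e-16). The fertilized arrays of Nup85 read 8.68, 8.76, 8.58 and 8.72 untreated and 9.51, 9.77, 9.40 and 9.28 with amanitin, and the SCNT arrays 9.37, 9.35, 9.61 and 9.42 and 7.38, 7.80, 7.31 and 7.28. It was higher with amanitin in the first and lower in the second.

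For Nup153, the large basket protein, the difference was -2.53 (SE 0.16, adjusted p = 5.47e-16). Its fertilized arrays read 10.24, 10.33, 10.57 and 10.63 untreated and 11.43, 11.63, 11.49 and 11.65 with amanitin. Its SCNT arrays read 10.07, 10.38, 10.30 and 10.61 untreated and 8.82, 9.19, 8.77 and 8.90 with amanitin, so the direction turned here too. Another probe set of Nup153 was higher with amanitin in both origins, by 2.66 (SE 0.14) and 1.70 (SE 0.14). The 3 members on the higher side were Ndc1 (1.07, SE 0.21), Nupl1 (0.69, SE 0.14) and Nup98 (0.54, SE 0.14). For Ndc1 and Nupl1 another probe set was called in the opposite direction. Ahctf1 (0.010, SE 0.15), Nup43 (0.16, SE 0.23) and Nup50 (0.17, SE 0.11) were not called, with an adjusted p of 0.969, 0.618 and 0.227.

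At the 1-cell stage no pore gene was called for amanitin. In fertilized embryos 0 of 27 passed the limma test, against 5.99% of all genes, and 4 had an unadjusted p under 0.05. The differences ran from -0.47 to 0.57, and 5 genes were called without untreated replicate 1. Under the authors' scaling alone the counts were 2 and 1, with a median over all genes of -0.135, and under median centring 11 and 0, with a median of 0.18. In SCNT embryos 0 of 27 passed, against 0.43% of all genes, with 2 at an unadjusted p under 0.05. The differences ran from -0.44 to 0.32, and 1 gene was called without amanitin replicate 2.

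Under amanitin, pore transcripts also changed between the 1-cell and 2-cell stages. In fertilized embryos 4 of the 27 genes were higher and 14 lower, against 21.6% and 19.1% of all genes tested, with medians of -0.38 over the members and 0.11 over all genes. With the authors' scaling alone 7 were higher and 13 lower (median of all genes 0.32), and with median centring 0 and 17 (median -0.15). Of the 17 genes that fell between the untreated stages, 10 also fell here, with no array in common. The matching count over all genes was not made. Among them, Rae1 (-0.38) lost its call with any of 29 arrays left out and Nup210 (-1.06) with any of 4. Nup155 (-0.60) lost it with any of 2 and Nup54 (-0.65) with 1. Without fertilized 2-cell amanitin replicate 2, 14 genes were called. Averaged over probe sets, Rae1 (-0.23) and Nup210 (-0.32) were not called, at adjusted p of 0.322 and 0.441. Nup107 (-3.42, SE 0.20), Nup93 (-2.53, SE 0.14), Nup37 (-1.63, SE 0.12) and Nup88 (-1.58, SE 0.11) had the largest declines. The 7 genes not lower here were Ndc1, Nup153, Nup214, Nup50, Nup98, Nupl2 and Sec13, of which Nup50 (0.61, SE 0.076) and Nup98 (0.34, SE 0.10) rose. Nup98 stood at -0.078 under median centring, and Nup50 at 0.22 (adjusted p = 0.0976). Nup133, which rose without amanitin, fell by 1.10 (SE 0.20), and Nup43 by 1.31 (SE 0.16). Whether the change differed with and without amanitin was not tested.

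**Figure D4:**
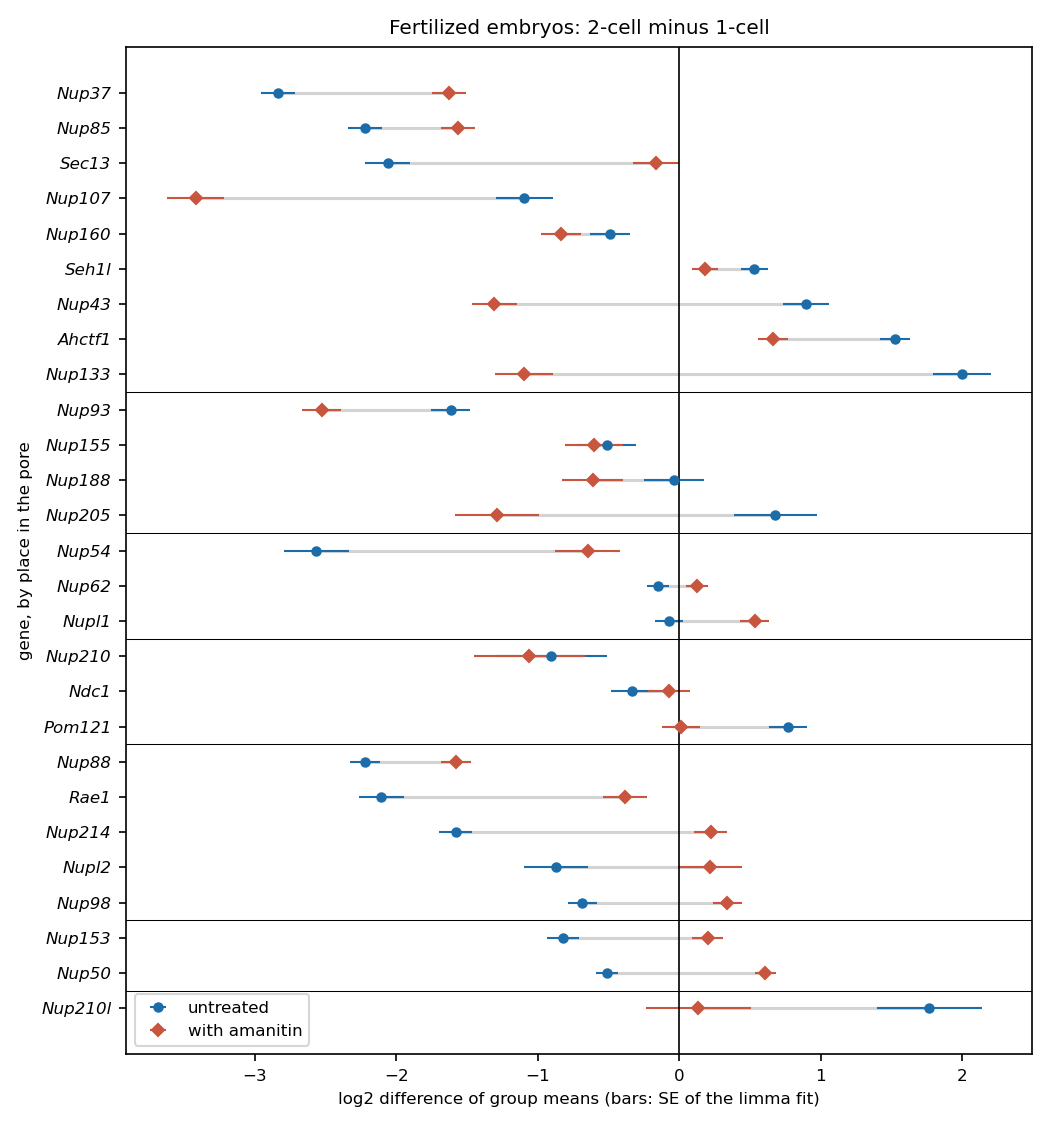
Log2 difference of group means between the 2-cell and the 1-cell stage of fertilized embryos (x axis) for each of the 27 pore genes (y axis, by place in the pore), untreated (circles) and with amanitin (diamonds), with bars of 1 SE of the limma fit. Nup133 and Nup43 lie above 0 untreated and below 0 with amanitin, and Nup37 and Nup88 lie below 0 in both.

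In SCNT embryos under amanitin 4 of the 27 genes were higher and 19 lower, against 25.7% and 29.8% of all genes tested, with medians of -1.17 and 0.009. These counts became 3 and 19 under the authors' scaling alone, where the median of all genes was 0.20, and 3 and 20 under median centring, where it was -0.20. Nup107 (-6.36, SE 0.20), Nup85 (-3.26, SE 0.12) and Nup93 (-3.01, SE 0.14) had the largest declines. The 4 genes that rose were Seh1l (1.14, SE 0.094), Ndc1 (0.93, SE 0.15), Ahctf1 (0.84, SE 0.11) and Nup188 (0.55, SE 0.21). Of the genes called under amanitin in both origins, Ahctf1 rose in both, 12 fell in both, and Nup188 and Nup50 went opposite ways. No such joint count was made over all genes. The fertilized rise of Ahctf1 was not called under median centring (0.20, adjusted p = 0.294) or with averaged probe sets (0.28, adjusted p = 0.0531). The 12 include Rae1, Nup155 and Nup54, whose fertilized calls were lost with arrays left out, as given above. The poly(A) controls averaged 3.52 to 3.88 on 1-cell and 10.04 to 10.58 on 2-cell SCNT arrays with amanitin, and their part in these differences was not tested. Without SCNT 2-cell amanitin replicate 1, Nup205 stood at -0.58 in place of -1.14, still called. Nup205 was not called in a fit on the compared arrays alone (adjusted p = 0.0626) or with averaged probe sets (-0.66, adjusted p = 0.0829). Nup188 lost its call with any of 4 arrays left out, at 0.46 to 0.53, and stood at 0.048 (adjusted p = 0.878) under median centring, 0.43 (adjusted p = 0.0804) under the authors' scaling and 0.29 (adjusted p = 0.282) with averaged probe sets.

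Between origins, 3 to 8 pore genes were called in untreated 1-cell embryos. The poly(A) controls differ between these groups, with the ranges given above, and their part in the differences between origins was not tested. Of SCNT against fertilized 1-cell embryos, 1 of the 27 genes was higher and 2 lower, against 2.88% and 2.69% of all genes tested. The 3 genes were Nup98 (0.55, SE 0.11), Rae1 (-0.55, SE 0.17) and Seh1l (-0.37, SE 0.10), and 1 was left without any one of the untreated SCNT arrays. Rae1 lost its call when any of 27 arrays was left out, at -0.63 to -0.40, and Seh1l with any of 4, at -0.38 to -0.27. Averaged over probe sets, Rae1 stood at -0.087 (adjusted p = 0.906) and Seh1l at -0.097 (adjusted p = 0.78). Of parthenogenetic against fertilized 1-cell embryos, 1 of the 27 genes was higher and 5 lower, against 10.9% and 9.55% of all genes tested. Under the authors' scaling alone the counts were 3 and 5, with a median over all genes of -0.115, and under median centring 6 and 2, with a median of 0.062. Nup107 was -1.63 (SE 0.20), with parthenogenetic arrays at 9.51, 9.74, 9.59 and 9.74 and fertilized arrays at 10.60, 11.44, 11.52 and 11.56. The groups did not overlap. Nup43 was -1.001 (SE 0.16), Nup155 -0.57 (SE 0.21), Nup85 -0.45 (SE 0.12), Ndc1 -0.41 (SE 0.15) and Ahctf1 0.48 (SE 0.11). Nup155 lost its call with any of 7 arrays left out, at -0.62 to -0.50, and Ndc1 with any of 6, at -0.43 to -0.34. Median centring ended the call of Nup85, at -0.14 (adjusted p = 0.493), and averaging of probe sets those of Ahctf1, Nup155 and Ndc1, at 0.26, -0.42 and -0.24 (adjusted p = 0.12, 0.21 and 0.238). Of SCNT against parthenogenetic 1-cell embryos, 4 of the 27 genes were higher and 4 lower, against 7.01% and 7.2% of all genes tested. With the authors' scaling alone 3 were higher and 5 lower (median of all genes 0.12), and with median centring 2 and 7 (median -0.038). Nup107 led these, at 1.41 (SE 0.21). Leaving out SCNT replicate 1 or 3 or parthenogenetic replicate 4 left 4, 5 and 5 calls.

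At the 2-cell stage 13 to 21 members were called between origins. Of SCNT against fertilized embryos, 6 of the 27 genes were higher and 7 lower, against 14.3% and 16.3% of all genes tested. These counts became 5 and 6 under the authors' scaling alone, where the median of all genes was 0.053, and 2 and 12 under median centring, where it was -0.10. Nup155 (-1.65, SE 0.21), Nupl1 (-1.09, SE 0.10) and Nup50 (-0.94, SE 0.076) were lower in SCNT embryos, and Nup85 (0.75, SE 0.12) and Seh1l (0.54, SE 0.094) higher. Averaged over probe sets, Nup155 (-0.32), Nupl1 (-0.19) and Seh1l (0.11) were not called, at adjusted p of 0.324, 0.164 and 0.495, and another probe set of Nupl1 was called in the opposite direction. Under median centring Seh1l stood at 0.20 (adjusted p = 0.25). Without fertilized 2-cell replicate 3, 8 genes were called. Nup210l (-1.22, SE 0.37) was not called without that array or replicate 2 (-1.004 to -0.94), nor Nup210 (1.31, SE 0.40) without it or replicate 4 (0.93 to 0.95). Without SCNT 2-cell replicate 2, Sec13 stood at -0.24 in place of -0.44 and was not called. Of parthenogenetic against fertilized embryos, 10 of the 27 genes were higher and 11 lower, against 26.4% and 21.0% of all genes tested. Under the authors' scaling alone the counts were 9 and 12, with a median over all genes of 0.15, and under median centring 5 and 12, with a median of 0.012. Nup107 (-1.51, SE 0.20), Nup93 (-1.34, SE 0.14), Nup155 (-1.17, SE 0.21), Nup210l (-1.54, SE 0.37), Nup160 (-1.085, SE 0.14) and Nup43 (-1.01, SE 0.16) were lower, and Nup214 (1.01, SE 0.12) and Nup50 (0.96, SE 0.076) higher. Nup214 stood at 0.14 (adjusted p = 0.497) with averaged probe sets. Without fertilized 2-cell replicate 3, Nup37 stood at 0.20 in place of 0.32 and was not called, and 17 genes were called. Calls of Nup98 (0.25) and Rae1 (-0.39) were lost with any of 7 and 5 arrays left out. Those of Ahctf1 (-0.28) and Seh1l (0.25) were lost with any of 3. Averaging of probe sets turned Seh1l to -0.36 (adjusted p = 0.00449). For Nup214, Ahctf1 and Seh1l another probe set was called in the opposite direction.

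Of SCNT against parthenogenetic 2-cell embryos, 10 of the 27 genes were higher and 10 lower, against 24.4% and 30.2% of all genes tested. Nup50 (-1.91, SE 0.076), Nupl1 (-1.87, SE 0.10) and Nup214 (-1.17, SE 0.12) were lower in SCNT embryos, and Nup107 (1.68, SE 0.20), Nup93 (1.63, SE 0.14) and Nup160 (1.38, SE 0.14) higher. Another probe set of Nupl1 was called higher. Without SCNT 2-cell replicate 1, Nup155 stood at -0.25 in place of -0.48. That call was lost with any of 11 arrays left out, and averaging of probe sets turned it to 0.25. These 3 pairs of origins share groups, so each is given by its own values.

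With amanitin, SCNT and fertilized embryos differed in 10 members at the 1-cell stage and in 22 at the 2-cell stage. At the 1-cell stage 3 of the 27 genes were higher and 7 lower, against 10.2% and 11.4% of all genes tested. With the authors' scaling alone 4 were higher and 6 lower (median of all genes 0.16), and with median centring 1 and 13 (median -0.125). Nup205 (-1.32, SE 0.29) and Nup188 (-0.81, SE 0.21) were lower in SCNT embryos and Nup98 (0.73, SE 0.10) higher. Averaged over probe sets, Nup205 stood at -0.81 (adjusted p = 0.0829). The poly(A) controls averaged 3.52 to 3.88 in SCNT and 7.22 to 7.42 in fertilized embryos. Without fertilized amanitin replicate 1 or 2, 6 genes were called. At the 2-cell stage 3 of the 27 genes were higher and 19 lower, against 18.6% and 24.7% of all genes tested, with medians of -0.85 over the members and -0.038 over all genes. These counts became 2 and 19 under the authors' scaling alone, where the median of all genes was 0.088, and 1 and 19 under median centring, where it was -0.13. Nup107 (-3.14, SE 0.20), Nup153 (-2.63, SE 0.11), Nup155 (-2.13, SE 0.21) and Nup85 (-2.05, SE 0.12) were the lowest in SCNT embryos, and Seh1l (0.65, SE 0.094), Ndc1 (0.60, SE 0.15) and Nup98 (0.27, SE 0.10) were higher. Without SCNT 2-cell amanitin replicate 4, Nup133 stood at -1.07 in place of -0.71, and without replicate 1 Nup205 stood at -0.61 in place of -1.17, both still called. In a fit on the compared arrays alone neither Nup133 nor Nup205 was called, at adjusted p of 0.17 and 0.0728. Nup98 lost its call with any of 3 arrays left out, at 0.18 to 0.27, and stood at 0.015 (adjusted p = 0.938) under median centring, where Ndc1 stood at 0.37 (adjusted p = 0.0574). Averaged over probe sets, Nup155 (-0.43), Nup133 (-0.14) and Nup205 (-0.50) were not called, at adjusted p of 0.128, 0.471 and 0.227, and another probe set of Nup155 and of Nup98 was called in the opposite direction. At this stage the poly(A) controls averaged 10.04 to 10.58 in SCNT and 7.22 to 7.63 in fertilized embryos, and the hybridization controls 10.68 to 11.11 and 10 to 10.09. Their part in these differences was not tested.

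Probe sets of the same pore gene did not always move together. The 27 genes had 72 probe sets, and 17 genes had another one above the filter beside the one used. In a fit over all 34945 single-gene probe sets, another probe set was called in the opposite direction for 4 genes between the fertilized stages, 5 with amanitin in fertilized and 6 with amanitin in SCNT 2-cell embryos. In fertilized 2-cell embryos with amanitin, the probe set used for Nup214 gave 1.61 (SE 0.12, adjusted p = 6.21e-15) and its dimmer one -1.97 (SE 0.29, adjusted p = 2.32e-07). For Nup155 the one used gave -0.027 (SE 0.20, adjusted p = 0.933) and another -4.57 (SE 0.27, adjusted p = 7.2e-18). Between the stages that second probe set of Nup155 rose by 2.72 (SE 0.27) while the one used changed by -0.51 (SE 0.20). For Nup50, 2 of its probe sets gave 1.03 (SE 0.076) and 1.65 (SE 0.18), and the third -1.02 (SE 0.14, adjusted p = 5.26e-08).

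The second probe set of Ndc1 gave -2.20 (SE 0.17, adjusted p = 4.54e-14) in SCNT embryos, where the one used gave 1.42 (SE 0.14, adjusted p = 2.89e-11). For Nup153 in SCNT embryos the one used gave -1.42 (SE 0.11, adjusted p = 5.04e-14) and another 1.70 (SE 0.14, adjusted p = 9.84e-14), so the turn of direction between origins described above holds for 1 of these 2 bright probe sets. Ahctf1 and Nup62 also had an opposite probe set in SCNT embryos, at 1.41 (SE 0.16) and 1.17 (SE 0.12), and Nupl2 in both fertilized comparisons. For Nup133 the second brightest probe set moved as the one used did, with -4.01 (SE 0.30) in fertilized and -5.70 (SE 0.30) in SCNT embryos, and a dim one was opposite in fertilized embryos, at 1.26 (SE 0.41). With the mean of each gene's probe sets in place of the brightest, Nup188 stood at -0.46 and Nup62 at 0.059 in SCNT embryos with amanitin. Nup155 stood at 0.25, Ndc1 at 0.42 and Nup160 at 0.12 between the SCNT stages, and Nup155 at 0.54 and Nupl1 at -0.24 between the parthenogenetic stages. For Nupl1, the amanitin effect in SCNT minus that in fertilized embryos was -0.50 on that scale. The same difference was not called for Ndc1 (0.36), Nup133 (-0.43), Nup205 (-0.84) and Rae1 (-0.59). Which transcripts each probe set detects was not tested.

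**Figure D5:**
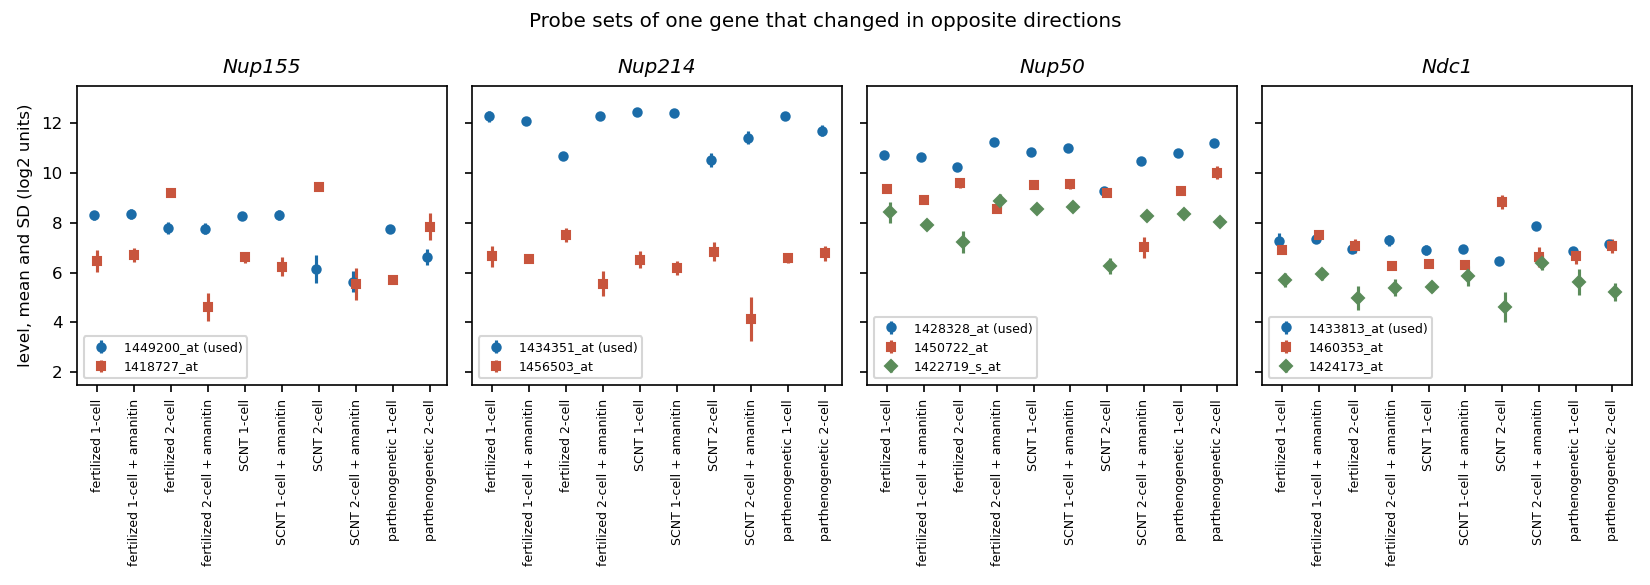
Log2 level (y axis) of the probe sets of Nup155, Nup214, Nup50 and Ndc1 in the 10 groups (x axis), with symbols for group means and bars for the SD over arrays. In 2-cell embryos with amanitin, 1 probe set of Nup214 and 1 of Nup50 lie lower than untreated while the others of these genes lie higher.

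Genes of nuclear transport and of the envelope outside the rule were counted from lists of 51 and 19 genes. The transport list includes the pore proteins Ranbp2 and Aaas, whose symbols the rule does not cover. It therefore does not separate pore genes from others. Between the fertilized stages Ranbp2 changed by 1.98 and Aaas by -0.43, and with amanitin by -2.11 and -0.042. Of the 49 transport genes tested, 26 rose and 16 fell between the fertilized stages, and 15 were higher and 27 lower with amanitin in fertilized 2-cell embryos. Their median differences were 0.65 and -0.63, opposite in sign to the -0.51 and 0.35 of the pore genes and the -0.13 and 0.28 of all genes. Between the SCNT stages the medians were 0.70 for the transport and -0.69 for the pore genes, and between the parthenogenetic stages 0.16 and -0.63. With amanitin in SCNT 2-cell embryos both were negative, at -0.88 and -0.27. The genes of the Ran cycle, which gives transport its direction, included 7 tested, Ranbp2 among them. Of these 5 rose and 0 fell between the stages, 0 were higher and 6 lower with amanitin in fertilized, and 0 and 7 in SCNT embryos. The shares of all genes are 25.8% and 34.3% between the stages, 38.6% and 25.7% with amanitin in fertilized, and 39.7% and 29.6% in SCNT embryos. Of 19 envelope genes, 8 rose and 5 fell between the stages, and 6 were higher and 8 lower with amanitin.

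The largest decreases with amanitin among these lists were in Xpot (-6.91, SE 0.31), which exports tRNA, Tor1b (-5.68, SE 0.33), an ATPase of the nuclear envelope lumen, and Nxf1 (-5.18, SE 0.23), the main mRNA export receptor. The largest increases were in Kpna7 (3.58, SE 0.12), an importin α of the oocyte, Pcid2 (2.88, SE 0.13), an mRNA export factor, and Lmna (1.99, SE 0.16), the A-type lamin. In SCNT embryos the same 6 differences were -6.13, -6.71, -4.67, 2.50, 1.29 and 1.75.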

How the data were processed

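Poly(A) RNA of B6D2 mouse 1-cell and 2-cell embryos was measured on 40 Affymetrix arrays. RNA was extracted with a PicoPure kit and labelled with an Enzo kit, per the labels' protocols. The authors deposited a table of linear intensity per probe set, whose array means of 214.3 to 268.7 lie close together. The program that made it and its scaling are not given in the sources used here. The column of 1-cell SCNT replicate 2 is empty, which left 39 arrays, and 0 columns belonged to other samples.

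A constant of 6.9, the 20th percentile of all values, was added before log2, and arrays were quantile normalized. Probe sets annotated to 1 gene were kept, each gene was represented by the one with the highest mean, and a gene was tested where 4 or more arrays lay above 5.34, the median of all values. limma 3.58.1 (R 4.3.3) fitted 10 group means with 29 residual degrees of freedom and a trended prior, for 17 comparisons of groups and 3 differences of differences. p-values were adjusted by Benjamini-Hochberg within each comparison, with a threshold of 0.05. The code was tested on simulated data. The number of arrays per group limits the precision.

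The members and the lists of transport, envelope and marker genes were chosen with earlier results of these data known. Members given on every array had the 4 largest calls in each direction in the main fertilized and SCNT comparisons, or the largest differences of differences. Tpr, Nup35 and Nup62cl fit the symbols of the rule, but no probe set was annotated to any of them alone, so they were not analysed here. Replicate numbers did not pair samples: over 45 pairs of groups, same-numbered deviations correlated at -0.0339 to 0.0892, with 0 over 0.1. Alternatives were other scalings, constants, filters, averaged probe sets of a gene, an untrended prior, a replicate block, a fit on the compared arrays alone, and arrays left out.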

Additional observations from a re-analysis of the deposited data

Results flagged for a closer look

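In 20 of 243 groups of 4 arrays checked, 1 array stood apart from the other 3 by more than a 95% critical value for such a gap, which chance alone passes in about 1 in 20 groups. Fertilized 1-cell replicate 1 gave 4 of the 20. Among fertilized 1-cell arrays, Ndc1 read 6.80 on replicate 2 against 7.41 to 7.48, Nup107 read 10.60 on replicate 1 against 11.44 to 11.56, Nup214 read 12.59 on replicate 1 against 12.14 to 12.19, Nup54 read 10.13 on replicate 1 against 11.62 to 11.75 and Rae1 read 10.10 on replicate 1 against 10.98 to 11.13. Among fertilized 2-cell arrays, Nup160 read 9.98 on replicate 2 against 9.64 to 9.69, Nup62 read 12.53 on replicate 2 against 12.65 to 12.67 and Nupl2 read 6.18 on replicate 2 against 5.82 to 5.85. Among fertilized 1-cell amanitin arrays, Sec13 read 10.41 on replicate 4 against 10.64 to 10.67. Among fertilized 2-cell amanitin arrays, Ahctf1 read 10.83 on replicate 1 against 10.63 to 10.64, Nup43 read 7.17 on replicate 4 against 7.52 to 7.55 and Sec13 read 10.16 on replicate 4 against 10.51 to 10.53. Among SCNT 1-cell amanitin arrays, Nup37 read 11.89 on replicate 3 against 11.65 to 11.67 and Nup50 read 10.87 on replicate 2 against 11.02 to 11.04. Among SCNT 2-cell arrays, Ahctf1 read 10.97 on replicate 2 against 11.29 to 11.33, Nup210l read 5.82 on replicate 4 against 4.07 to 4.14, Nup214 read 10.11 on replicate 2 against 10.67 to 10.71 and Nup98 read 9.98 on replicate 3 against 9.44 to 9.50. Among SCNT 2-cell amanitin arrays, Nupl1 read 11.61 on replicate 3 against 11.28 to 11.33. Among parthenogenetic 1-cell arrays, Nup93 read 10.97 on replicate 4 against 10.74 to 10.75.

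The effect of a contrast differed between origins for 38 gene values by a direct test in the limma fit. For the 2-cell amanitin effect, SCNT minus fertilized, the differences were Nup107 (-3.31), Nup85 (-2.80), Nup153 (-2.53), Nup205 (-1.90), Nup160 (-1.86), Rae1 (-1.73), Nup54 (-1.62), Pom121 (-1.62), Nupl2 (-1.32), Nup133 (-1.26), Nup37 (-1.15), Nup93 (-1.07), Sec13 (-0.94), Nup88 (-0.75), Nup62 (-0.73), Nup214 (-0.73), Nup98 (0.54), Nupl1 (0.69) and Ndc1 (1.07). For the change between stages, SCNT minus fertilized, they were Nup155 (-1.62), Nupl1 (-1.12), Nup50 (-1.06), Nup98 (-0.82), Seh1l (0.91), Rae1 (1.11), Nup85 (1.12) and Nup205 (1.38). For the change between stages, parthenogenetic minus fertilized, they were Nup210l (-1.52), Nup93 (-1.08), Nup160 (-0.88), Nup133 (-0.84), Ahctf1 (-0.76), Nup88 (0.46), Nup62 (0.47), Nupl1 (0.51), Ndc1 (0.59), Nup50 (0.89) and Nup214 (1.01). The poly(A) controls of these groups averaged 5.93 to 6.85 and 6.91 to 8.40 in untreated fertilized, 3.56 to 3.66 and 8.12 to 9.15 in untreated SCNT, and 7.74 to 8.01 and 7.56 to 7.60 in parthenogenetic 1-cell and 2-cell embryos. With amanitin at 2 cells they averaged 7.22 to 7.63 in fertilized and 10.04 to 10.58 in SCNT embryos. Their part in the differences was not tested.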

How the results depend on the processing

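Of 295 called values, 184 kept their direction and call under every alternative but the omission of single arrays, 245 did so in every fit without 1 array, and 179 under all. The replicate block changed 1 call, Nup210 between the fertilized stages, where the adjusted p was 0.0518 and 23 members were called in place of 24. Replicate numbers did not pair the arrays.

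Counts of members called moved by over 1.5 times as follows. For amanitin in fertilized 1-cell embryos the count of 0 became 3 with the authors' scaling, 11 with median centring, 1 with the mean of probe sets, and 5 when replicate 1 of fertilized 1-cell embryos and replicate 4 of SCNT 1-cell embryos with amanitin were left out together. For SCNT minus fertilized 1-cell embryos the count of 3 became 1 with median centring, the mean of probe sets, an untrended prior or only the compared arrays. For SCNT minus parthenogenetic 1-cell embryos the count of 8 became 5 with the mean of probe sets and 16 with only the compared arrays. The mean of probe sets also gave 8 in place of 13 for SCNT minus fertilized 2-cell embryos, 5 in place of 10 for SCNT minus fertilized 1-cell embryos with amanitin, and 4 in place of 8 and 7 in place of 11 for the SCNT and the parthenogenetic difference from fertilized embryos in the change between stages. Without single arrays the counts ran from 0 to 5 for amanitin in fertilized 1-cell embryos (5 without untreated replicate 1), 0 to 1 in SCNT 1-cell embryos (1 without amanitin replicate 2), 1 to 3 for SCNT minus fertilized 1-cell, 8 to 14 for SCNT minus fertilized 2-cell (8 without fertilized replicate 3), 4 to 10 for SCNT minus parthenogenetic 1-cell (4 without SCNT replicate 1) and 6 to 10 for SCNT minus fertilized 1-cell embryos with amanitin (6 without fertilized replicate 1 or 2).

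Averaging the probe sets of a gene turned 26 values, with Nup155 0.69 and Nupl2 0.17 in fertilized 2-cell minus fertilized 1-cell, Ndc1 0.42, Nup155 0.25 and Nup160 0.12 in SCNT 2-cell minus SCNT 1-cell, Nup155 0.54 and Nupl1 -0.24 in parthenogenetic 2-cell minus parthenogenetic 1-cell, Ndc1 -0.024 and Nup214 -0.18 in fertilized 2-cell amanitin minus untreated, Nup153 0.002, Nup188 -0.46, Nup214 -0.92 and Nup62 0.059 in SCNT 2-cell amanitin minus untreated, Nup98 -0.20 in fertilized amanitin 2-cell minus 1-cell, Ndc1 0.30 in 2-cell SCNT minus fertilized, Ahctf1 0.22 and Seh1l -0.36 in 2-cell parthenogenetic minus fertilized, Rae1 0.033 in 1-cell SCNT minus parthenogenetic, Ndc1 0.16, Nup155 0.25 and Nupl2 0.12 in 2-cell SCNT minus parthenogenetic, Nup153 0.105, Nup214 -0.032 and Nup85 0.028 in 1-cell amanitin SCNT minus fertilized, Nup98 -0.028 in 2-cell amanitin SCNT minus fertilized and Nupl1 -0.50 in the amanitin effect in SCNT minus that in fertilized embryos. Median centring turned Nup50 -0.25, Nup62 -0.042 and Nupl1 -0.14 in parthenogenetic 2-cell minus parthenogenetic 1-cell, Nup62 0.13 in SCNT 2-cell amanitin minus untreated, Nup98 -0.078 in fertilized amanitin 2-cell minus 1-cell and Nup88 -0.031 in the parthenogenetic minus fertilized difference of the change between stages. The authors' scaling turned Nup62 0.19 in SCNT 2-cell amanitin minus untreated. The causes were not tested. Values near the overall median, such as those of Nup210, Nup210l and Nup107 in SCNT 2-cell embryos with amanitin, depend on the added constant.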

Other observations

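The genes of the transport list were also counted by their roles. Of 18 importins and adaptors, which carry proteins into the nucleus, 6 rose and 7 fell between the fertilized stages. With amanitin 8 were higher and 7 lower in fertilized 2-cell embryos, and 8 and 9 in SCNT ones. Of 7 exportins, 5 rose and 2 fell between the stages. With amanitin 1 was higher and 4 lower in fertilized embryos, and 0 and 5 in SCNT embryos. Of 17 tested mRNA export genes, 10 rose and 7 fell between the stages, with 6 higher and 10 lower in fertilized and 7 and 8 in SCNT embryos with amanitin.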
